A study of Mus musculus with 60 samples.

Results

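The H3K27me3 landscape of the right hippocampus was compared between exercised and sedentary mice, using the peak list of each condition. The members were the 9899 peaks of the exercised list and the 21790 peaks of the sedentary list, out of 100414 H3K27me3 peaks and 256375 peaks of both histone marks in the series. They came from 6 of the 60 samples, 3 per condition. All were male Emx1-NuTRAP mice, which join a Cre recombinase driven from the Emx1 gene with the NuTRAP allele, so that nuclei and ribosomes of recombined cells carry tags for purification. Exercised mice had voluntary access to a running wheel from postnatal day 21 to 41 (early-life exercise), and sedentary mice had none over the same days. Nuclei were taken from the right whole hippocampus in separate isolations and profiled by CUT&RUN-seq, in which an antibody directs a nuclease to cut out the DNA around the marked nucleosomes. Emx1 marks the dorsal telencephalic lineage, which yields mainly excitatory neurons and can also yield astrocytes.

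H3K27me3 is the trimethylation of histone H3 that Polycomb repressive complex 2 places through its subunits Ezh2 or Ezh1. It covers silent developmental genes such as the Hox clusters in domains far longer than a promoter, and it keeps genes of other lineages off in mature neurons. Prox1, which comes up repeatedly here, encodes a homeodomain factor that specifies granule cells of the dentate gyrus over pyramidal cells.

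Sequence before the start site is shown for 6 genes, a pair from each outcome described further on, because Polycomb complexes are known for CpG-rich sequence. Nkx2-1 and Olig3 had their start site inside a peak of both lists, Dlx2 and Prox1 in the sedentary list only, and Cd44 and Net1, chosen after their values were seen, in the exercised list only. Each line gives the 250 bases before the RefSeq start (GRCm38.p6), 5′ to 3′, with CG dinucleotides in capitals. The pieces lay at chr12:56536909-56537158 (minus strand), chr10:19356289-19356538 (plus strand), chr2:71546755-71547004 (minus strand), chr1:190170828-190171077 (minus strand), chr2:102901666-102901915 (minus strand) and chr13:3918221-3918470 (minus strand).
Nkx2-1: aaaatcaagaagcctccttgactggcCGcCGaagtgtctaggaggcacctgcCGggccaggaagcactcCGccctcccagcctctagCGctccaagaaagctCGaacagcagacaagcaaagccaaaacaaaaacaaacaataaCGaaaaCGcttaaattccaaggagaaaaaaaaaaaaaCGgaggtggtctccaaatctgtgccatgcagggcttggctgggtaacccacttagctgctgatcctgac
Olig3: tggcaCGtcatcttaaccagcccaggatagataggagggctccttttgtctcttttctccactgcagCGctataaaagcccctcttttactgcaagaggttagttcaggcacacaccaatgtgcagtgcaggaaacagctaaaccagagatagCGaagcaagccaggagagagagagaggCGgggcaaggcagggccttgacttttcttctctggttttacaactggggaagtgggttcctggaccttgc
Dlx2: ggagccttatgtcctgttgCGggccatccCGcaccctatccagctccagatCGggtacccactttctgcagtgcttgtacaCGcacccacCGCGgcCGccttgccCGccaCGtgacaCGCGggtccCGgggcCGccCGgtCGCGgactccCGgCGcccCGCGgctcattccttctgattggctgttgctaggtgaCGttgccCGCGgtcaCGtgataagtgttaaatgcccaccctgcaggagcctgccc
Prox1: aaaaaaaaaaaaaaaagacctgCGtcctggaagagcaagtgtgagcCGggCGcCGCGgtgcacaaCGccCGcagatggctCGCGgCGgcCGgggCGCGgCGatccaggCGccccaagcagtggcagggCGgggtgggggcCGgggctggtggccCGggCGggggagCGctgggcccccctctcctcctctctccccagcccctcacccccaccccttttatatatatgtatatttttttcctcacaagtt
Cd44: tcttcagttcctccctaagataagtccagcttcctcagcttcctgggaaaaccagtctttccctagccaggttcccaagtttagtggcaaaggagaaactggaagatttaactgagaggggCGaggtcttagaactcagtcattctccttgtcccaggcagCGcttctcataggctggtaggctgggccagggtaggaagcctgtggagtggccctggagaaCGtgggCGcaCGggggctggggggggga
Net1: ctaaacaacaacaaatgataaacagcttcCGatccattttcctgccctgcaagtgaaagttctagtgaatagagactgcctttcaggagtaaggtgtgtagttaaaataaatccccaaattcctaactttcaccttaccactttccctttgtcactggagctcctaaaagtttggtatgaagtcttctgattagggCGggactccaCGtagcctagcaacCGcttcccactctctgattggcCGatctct
The Dlx2 piece held 24 CG dinucleotides and the Prox1 piece 20, against 9 before Nkx2-1, 5 before Cd44, 5 before Net1 and 4 before Olig3. Over all protein-coding genes with a RefSeq entry (16522 of 21938), the median was 10 CG and 93.0% held at least 1. The median was 11 CG for start sites marked in both conditions (782 genes with an entry), 8 for those marked in the sedentary list only (793 genes) and 2 for those marked in the exercised list only (28 genes). A single gene could sit far from the median of its group, as Dlx2 and Olig3 did.

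The exercised list was the shorter and narrower of the pair. It covered 41.2 Mb of the genome, against 114 Mb for the sedentary list. The median peak was 2861 bp wide in exercised and 3116 bp in sedentary mice, and the mean 4164 and 5254 bp. The gap was widest among broad peaks, with 604 exercised and 2151 sedentary peaks of at least 10000 bp, and 9 against 106 of at least 50000 bp. Each condition was read from 1 pooled list, which holds positions and no read counts. These lists give no spread between replicates, allow no test of the difference and do not state the depth behind them. The reads of the single libraries were not used here. A difference in depth or in peak calling cannot be told apart from a difference in the mark. Intervals given here are 95% Wilson intervals on counts of peaks or genes, and leave out any difference between mice. They count each gene separately, although neighbouring genes can share 1 peak, so intervals on genes can be too narrow.

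Most exercised peaks touched a sedentary peak, while most sedentary peaks touched no exercised peak. Of the 9899 exercised peaks, 9370 overlapped a sedentary peak by at least 1 bp (94.7%, interval 94.2 to 95.1%). Of the 21790 sedentary peaks, 6896 overlapped an exercised peak (31.6%, 31.0 to 32.3%) and are called kept here. In bases, 93.7% of the exercised territory lay inside sedentary peaks and 33.7% of the sedentary territory inside exercised peaks. This left 529 exercised-only peaks, covering 1.10 Mb, and 14894 sedentary-only peaks, covering 47.0 Mb. Where the sedentary list was reduced to its 9899 widest peaks, 83.3% of exercised and 56.7% of sedentary peaks overlapped the other list. Where an overlap had to cover 50% of both peaks, the shares were 31.5 and 14.3%.

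Breadth separated the kept sedentary peaks from the rest. Of sedentary peaks under 2000 bp, 8.50% were kept (324 of 3813), and of those from 2000 to 3000 bp 10.3% (680 of 6600). The share was 28.7% from 3000 to 5000 bp, 60.6% from 5000 to 10000 bp and 87.5% from 10000 to 20000 bp. It was 99.6% from 20000 to 50000 bp (568 of 570), and all 106 peaks of at least 50000 bp were kept. A wider peak offers more bases to overlap, so the share of bases was also computed. Exercised peaks covered 5.71% of the bases of sedentary peaks under 2000 bp, 32.1% from 5000 to 10000 bp and 72.3% from 50000 bp, in the same order.

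**Figure D1:**
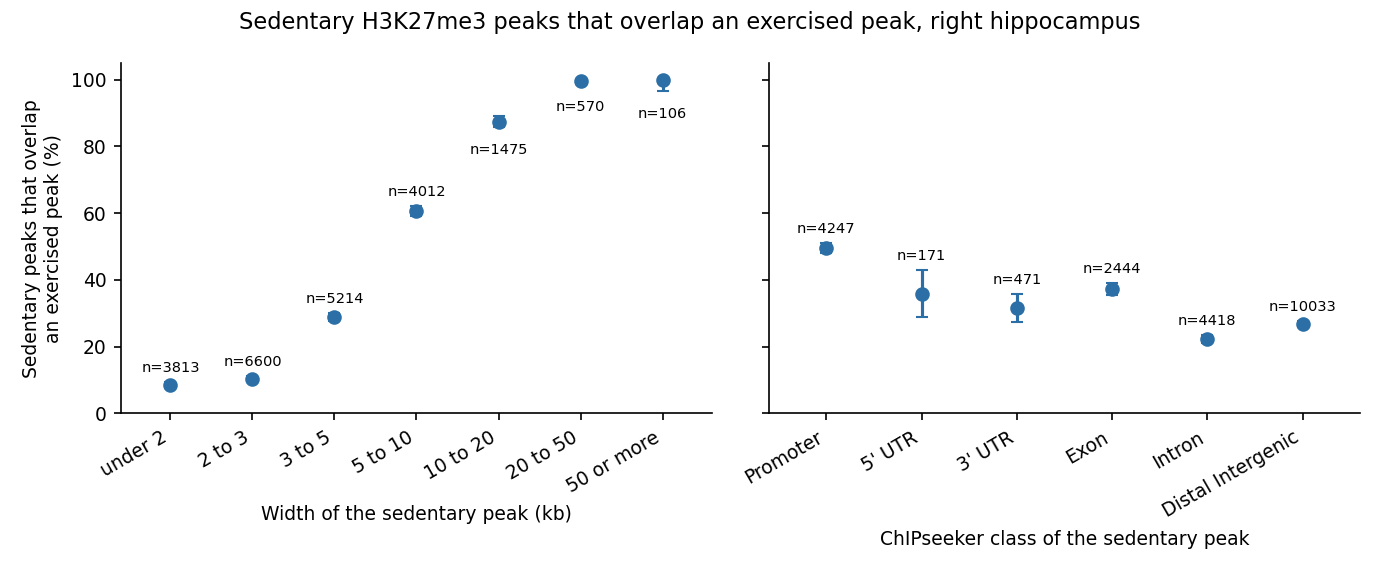
Share of sedentary peaks (%, y axes) that overlap an exercised peak, by the width of the sedentary peak in kb (left) and by its annotation class (right); points are shares, bars 95% Wilson intervals over peaks, and n the number of sedentary peaks. The share climbs from 8.50% under 2 kb to 100% at 50 kb or more, and promoter peaks lie highest among the classes at 49.4%.

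Promoter peaks were kept more often than peaks elsewhere. The kept share was 49.4% for peaks annotated within 3 kb of a start site (2100 of 4247), 37.2% for exonic peaks, 26.9% for distal intergenic peaks and 22.2% for intronic peaks (981 of 4418). The order of promoter over intronic peaks also held within each width class up to 20000 bp. Among sedentary peaks from 5000 to 10000 bp, 73.8% of promoter peaks (71.1 to 76.4%) and 50.4% of intronic peaks (46.6 to 54.2%) were kept. By GC content, the kept share was 25.9% in the fifth of sedentary peaks with the lowest GC and 34.5% in the fifth with the highest. Within width classes the same groups had 8.99 and 7.24% under 2000 bp, 10.2 and 10.8% from 2000 to 3000 bp, 27.7 and 30.8% from 3000 to 5000 bp, 355 of 592 and 594 of 919 from 5000 to 10000 bp, and 87.7 and 89.0% from 10000 to 20000 bp. As a whole, promoters made up 23.7% of exercised and 19.5% of sedentary peaks, a difference of 4.21 percentage points. That difference changed sign, to -3.31 points, with the sedentary list reduced to its 9899 widest peaks.

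Kept domains were also narrower and more often interrupted in exercised mice. For 4969 pairs in which 1 exercised peak overlapped 1 sedentary peak and neither touched another, the median width was 2772 bp in exercised and 5463 bp in sedentary mice. The sedentary peak was the wider in 4464 of these pairs (89.8%), and the median ratio of exercised to sedentary width was 0.589. A further 1539 sedentary peaks each held at least 2 exercised peaks, 4276 of them in all. In the other direction, 259 exercised peaks touched at least 2 sedentary peaks. Exercised peaks covered 57.2% of the bases of kept sedentary peaks.

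**Figure D2:**
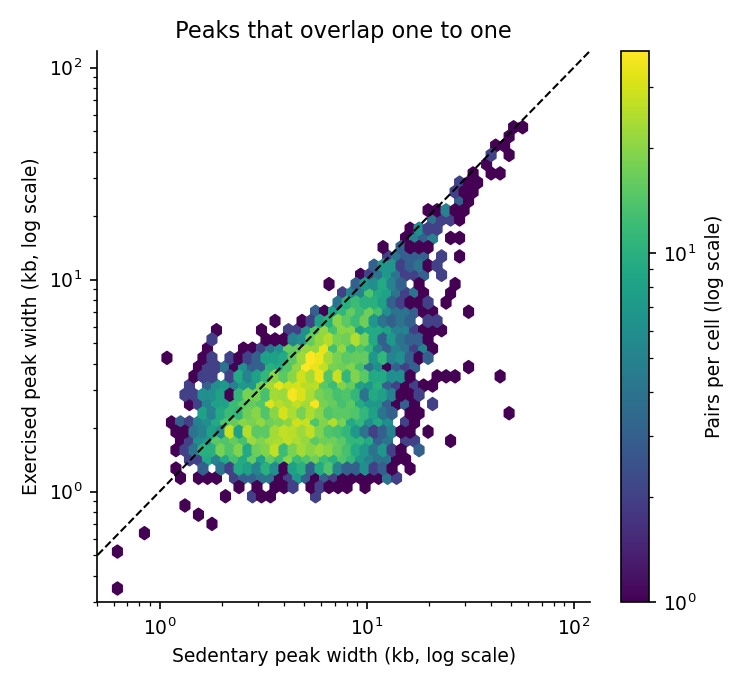
Width in kb (log scales) of the sedentary peak (x axis) and the exercised peak (y axis) for the 4969 pairs that overlap one to one; colour gives the number of pairs per hexagon on a log scale and the dashed line marks equal width. Most pairs lie under the line, with the sedentary peak wider in 89.8% of them.

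The widest peaks of both lists were assigned to several Hox, paired-box and other genes. The widest exercised peak, 76888 bp, was assigned to Sfta3-ps beside Nkx2-1, the homeobox gene of thyroid, lung and ventral forebrain. It was followed by a 74693 bp peak at Gm10578, a 68526 bp peak at Hoxa10, a 65535 bp peak at Plcb4 (a phospholipase C) and a 62826 bp peak at Pax3 (a paired-box factor of neural crest and muscle). All of these 5 lay wholly inside sedentary peaks. The widest sedentary peaks were 193654 bp at Hotair in the HoxC cluster, 174937 bp at Gm21188, 161281 bp at Hoxb3os in the HoxB cluster, 154745 bp at Gm10578 and 150386 bp at Ebf1, a factor of B cell and neuronal differentiation. In these 5 sedentary domains the exercised list had 13, 13, 7, 6 and 13 peaks.

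The HoxC cluster shows such a split domain. The sedentary list had a single peak there (chr15:102896476-103090129), and the exercised list 13 peaks that together covered 165408 of its 193654 bp. In the other 4 H3K27me3 lists of the series 1 or 2 peaks covered between 192645 and 193523 bp of it. Ddah1, an enzyme that degrades methylarginines, held the most interrupted domain, with 17 exercised peaks over 105476 of 144221 bp. The other 4 lists had between 2 and 8 peaks there, with 4 in the exercised left and 8 in the sedentary left list. Maf, a leucine zipper factor, had 13 exercised peaks over 78949 of 126273 bp. The other 4 lists had between 2 and 9 peaks there, with 9 in the exercised left and 7 in the sedentary left list. These domains were thus divided in other lists as well. Counted as covered bases, then, these domains were largely present in both conditions. Each was chosen as 1 sedentary peak, wide or much divided, so more pieces in the exercised list were favoured by the choice.

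Prox1 differed from the Hox clusters in that little of its domain was present in the exercised list. Its start site lay inside a 46822 bp sedentary peak, and the nearest exercised peak was 31329 bp away. Within 100 kb on either side of the start, the sedentary list had 22 peaks over 158468 bp and the exercised list 3 peaks over 7292 bp. The same window held 94257 bp in the exercised left and 88120 bp in the sedentary left list. It held 176652 bp in the exercised list and 129376 bp in the sedentary list of the simultaneous isolations (SIT), in which nuclei and RNA came from 1 homogenate of both hippocampi. The exercised right list was thus the lowest of the 6 lists at Prox1, and the difference between conditions ran the other way in the other isolations.

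**Figure D3:**
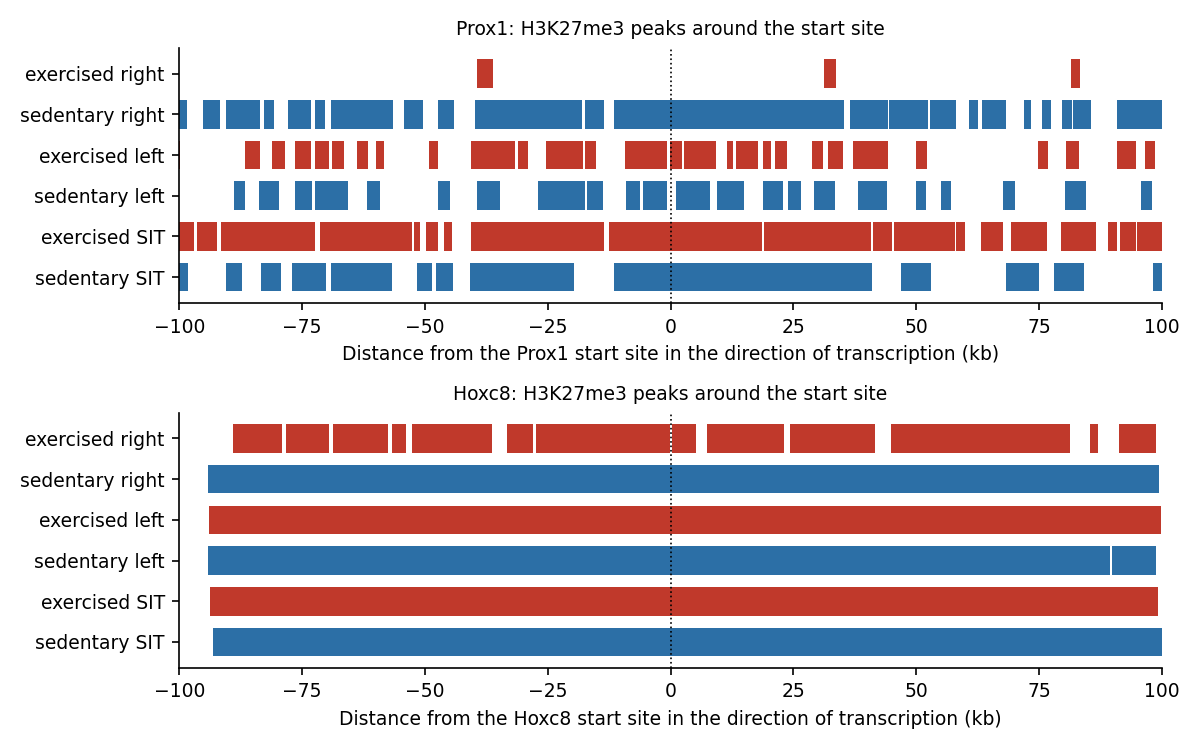
H3K27me3 peaks (bars, red exercised and blue sedentary) of the 6 lists around the start sites of Prox1 (top) and Hoxc8 in the HoxC cluster (bottom); x axes give the distance from the start site in kb in the direction of transcription, and each row is 1 pooled list. Within 100 kb of the Prox1 start there are 3 narrow peaks in the exercised right list and 22 in the sedentary right list, while the HoxC domain is covered by 13 peaks in place of 1.

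To place Prox1 among other broad domains, covered bases within 100 kb of the start were compared for all 364 protein-coding genes with at least 80 kb of sedentary peaks in that window. Neighbouring genes share bases in this count. The windows were chosen for a high value in the sedentary list, so a lower exercised value was favoured by the choice, and the values only place genes relative to each other. The exercised amount was a median of 54.4% of the sedentary one (quartiles 40.4 and 67.8%). Ntm, a cell adhesion protein of the IgLON family, had the lowest value, with 2007 exercised and 91846 sedentary bp (2.19%). Prox1 was next, with the values given above, then Mpped1, a metallophosphoesterase domain gene, at 5.50%, Bend5 at 6.07%, H2-M10.5 at 6.67% and Scube1 at 6.83%. These 6 were the genes under 10%. At the other end stood the HoxA cluster, with 8 Hoxa genes among the 12 highest and Hoxa10 at the top, with 177531 exercised and 183974 sedentary bp (96.5%). In the other isolations the same 364 windows held a median of 111% (left) and 128% (SIT) of exercised relative to sedentary bases, values that the choice did not use. The genes at both ends of this order were chosen after their values were seen.

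A gene was next counted as marked if its start site, the 5′ end of the gene in GENCODE M21, lay inside a peak. Of 21938 protein-coding genes, 2139 were marked in sedentary mice (9.75%) and 1094 in exercised mice (4.99%). Marked in both were 1058 genes, in the sedentary list only 1081 and in the exercised list only 36. With the sedentary list reduced to its 9899 widest peaks, 691 were in the sedentary list only and 96 in the exercised list only. As backgrounds for the gene lists, 50.5% of the start sites marked in sedentary mice were not marked in exercised mice, and 3.29% of those marked in exercised mice were not marked in sedentary mice. The sedentary peak over the start had a median width of 8972.5 bp for genes marked in both and 4263 bp for sedentary-only genes.

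The sedentary-only start sites were of 2 kinds. For 709 of the 1081, the sedentary peak overlapped no exercised peak at all, and the nearest exercised peak was a median of 81790 bp away. For the other 372, the sedentary peak overlapped an exercised peak by at least 1 bp away from the start site. The nearest exercised peak lay a median of 716.5 bp from these start sites, and within 1000 bp for 213 of them, but it can be far, as for Prox1. The first kind lay under narrow peaks (median 3352 bp) and the second under wider ones (median 8581.5 bp). For the genes named next, the distance to the nearest exercised peak or the lack of an overlap is given for the main examples.

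Hox genes, which set position along the body axis, were marked almost throughout, with 38 of 39 in sedentary and 30 in exercised mice. The 8 sedentary-only members were Hoxc13, Hoxc11, Hoxc8, Hoxb4, Hoxb2, Hoxd13, Hoxd9 and Hoxa4. All 8 lay between 54 bp (Hoxc13) and 639 bp (Hoxd9) from an exercised peak. With 50.5% of all start sites not kept, the Hox share was 21.1%, and the kept shares of start sites under peaks of the same width classes would give 30.3 kept genes, beside the 30 counted.

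A list of 76 other homeobox genes, which does not hold every gene of this kind (Prox1, Cux1 and Gsx1 are not in it), was marked as widely, with 74 marked in sedentary and 63 in exercised mice. The kept share was 85.1% (75.3 to 91.5%). Start sites under peaks of the same width classes would give 56.7 kept genes, beside the 63 counted, a difference that was not tested. Pax3 lay under peaks of 62826 bp (exercised) and 122177 bp (sedentary), Nkx2-1 under 27232 and 114684 bp, and En2, a gene of the midbrain-hindbrain border, under 18084 and 76454 bp. Of the 11 sedentary-only members of the list the widest sedentary peak was over Barhl2, a neural subtype factor, whose start lay 1585 bp from an exercised peak under a 105191 bp sedentary peak. It was followed by Pax7 (56058 bp), Irx2 (45182 bp), Irx1 (45037 bp), Nkx2-5 (38604 bp) and Shox2 (29678 bp). All 11 lay in domains that overlapped an exercised peak, the farthest being Nkx2-5, the cardiac homeobox gene, at 3991 bp.

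The remaining families of transcription factors had lower marked shares. Forkhead genes were marked in 23 of 41 cases in sedentary and 16 in exercised mice, SOX and T-box genes in 21 of 36 and 13, and GATA and basic helix-loop-helix genes in 24 of 41 and 20. The width classes would give 16.6, 14.7 and 17.1 kept genes, beside the 16, 13 and 20 counted. Among the sedentary-only members, Sox1 (66871 bp sedentary peak), Sox2 (52896 bp) and Sox21 (35068 bp), SOX factors of neural progenitors and their differentiation, lay 160, 938 and 177 bp from an exercised peak. Foxa3, Tbx21, Sox18 and Tbx19 lay under sedentary peaks of 2785, 7638, 3766 and 2591 bp that no exercised peak overlapped. Taken as 1 set with the homeobox genes, the transcription factors kept 142 of 180 marked start sites (78.9%, 72.4 to 84.2%), against 46.8% (44.6 to 49.0%) of all other protein-coding genes. The sedentary peak over the start had a median width of 133877 bp in the Hox list and 33990 bp in the other homeobox list, kept and not kept together, against 8972.5 bp over all genes marked in both and 4263 bp over all sedentary-only genes. Under sedentary peaks from 20000 to 50000 bp, 82.3% (72.4 to 89.1%) of transcription factor and 76.4% (69.6 to 82.1%) of other start sites were kept, with overlapping intervals.

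Cell type markers were read first as a check on the labelled neurons. Of 26 excitatory neuron markers, 24 were marked in neither list, and Prox1 was marked in the sedentary list only. Of 31 interneuron genes, which also include Prox1, 22 were marked in sedentary and 16 in exercised mice. Oligodendrocyte lineage genes were marked in 10 of 20 cases in sedentary and 4 in exercised mice, astrocyte genes in 5 of 16 and 4, and microglial and endothelial genes in 11 of 25 and 6. The share of excitatory neuron markers marked in sedentary mice, 7.69%, was near the 9.75% of all protein-coding genes, and that of interneuron genes, 22 of 31, was above it.

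Among interneuron genes, the ventral forebrain regulators Dlx5 and Dlx6 shared 1 domain of 49119 bp in exercised and 56624 bp in sedentary mice. Dlx1 and Dlx2 shared a sedentary peak of 38011 bp, of which Dlx1 stayed inside an exercised peak of 12638 bp while the Dlx2 start lay 1130 bp from one. Nr2f2 (18988 bp), a nuclear receptor of interneurons, was also sedentary only, 1808 bp from an exercised peak. Calb2, which encodes calretinin, lay under a 4006 bp sedentary peak that no exercised peak overlapped. Reln, the secreted guide of neuronal layering, was marked in both, at 10999 bp in exercised and 37825 bp in sedentary mice.

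In the glial and vascular lists, 8 of the 12 sedentary-only start sites lay under a sedentary peak that no exercised peak overlapped, much as 709 of 1081 did over all genes. Of oligodendrocyte genes, Mag (a myelin glycoprotein), Enpp2, Zfp488 and Cspg4 had none, while Pdgfra, the receptor of oligodendrocyte precursors, lay 218 bp from an exercised peak under a 36870 bp sedentary peak, and Sox10 lay 1734 bp away. Gja1, which encodes connexin 43 of astrocytes, had a 6890 bp sedentary peak and no exercised peak within 102322 bp. Cx3cr1 (3961 bp), Kdr (6779 bp) and Sox18 (3766 bp), of microglia and endothelium, had none in the domain. In the oligodendrocyte list 6 of 10 marked start sites were not kept, beside the background of 50.5%.

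Ligands of the WNT, BMP and related families were marked in 35 of 54 cases in sedentary and 23 in exercised mice. Bmp4 (35313 bp), Shh (23551 bp) and Bmp2 (14231 bp) were sedentary only and lay 492, 415 and 1037 bp from an exercised peak, while Bmp5, under a 10334 bp sedentary peak, had its nearest exercised peak 899620 bp away. Wnt8b (10064 bp exercised, 32859 bp sedentary), Gdf6 (19943 and 26724 bp) and Ihh (11492 and 25360 bp) were marked in both. Bmp3, an antagonist within the BMP family, was the single member of any list marked in the exercised list only, under a 2873 bp peak. None of the other 4 H3K27me3 lists had a peak over the Bmp3 start, although 1492 bp (exercised left) and 2479 bp (exercised SIT) lay within 3 kb of it.

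Neurotrophin and related genes were marked in 7 of 18 cases in sedentary and 4 in exercised mice. Ngfr, the low-affinity neurotrophin receptor, had 11758 bp in exercised and 13569 bp in sedentary mice. Gdnf (18858 bp) and its receptor Ret (14161 bp) were sedentary only by 66 and 4 bp, and Ntf5 by 3594 bp. Bdnf, the neurotrophin most studied in exercise, had no H3K27me3 peak over its start or within 3 kb of it in any of the 6 lists. Its 3 kb window did hold acetylated H4K8, 1489 bp in the exercised right and 2712 bp in the sedentary right list.

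Neurotransmitter receptors were marked in 20 of 81 cases in sedentary and 9 in exercised mice. Glra1 (glycine receptor), Chrm2 (muscarinic receptor), Grik1 (kainate receptor) and Adra2b were marked in both. Grik3 (22439 bp), Htr1b (9886 bp), Drd2 (7311 bp), Grm4 (6005 bp), Adra1b (5290 bp) and Adrb3 (4397 bp) led the sedentary-only members. Of these Htr1b, Grm4 and Adra1b had no exercised peak in the domain. The share not kept was 55.0%, near the background of 50.5%.

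Extracellular matrix genes were marked in 26 of 52 cases in sedentary and 13 in exercised mice. Col24a1 (25560 bp exercised, 33523 bp sedentary), Col27a1 (23317 and 29604 bp) and Col2a1 (13055 and 18395 bp) were marked in both. The 6 widest sedentary-only members were Col8a1 (7057 bp), Col1a1 (6755 bp), Col13a1 (6519 bp), Col5a1 (4033 bp), Col4a6 (3729 bp) and Lama5 (3656 bp), all genes of collagens or laminins. In the whole list 13 of 26 marked start sites were not kept, near the background. For imprinted genes, 10 of 38 were marked in sedentary and 7 in exercised mice, with Grb10 (11373 bp exercised, 23930 bp sedentary) and Dlk1 (11478 and 21723 bp) in both and Gnas, Igf2 and Slc22a18 in the sedentary list only.

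No start site of 62 cytosolic ribosomal protein genes or of 34 Polycomb complex genes lay in a peak of either list, beside 9.75% (sedentary) and 4.99% (exercised) of all protein-coding genes. Away from the start, Aebp2 had 2616 bp of exercised and no sedentary peaks within the gene, and Cbx8 139 bp of sedentary and no exercised peaks. Of 30 immediate early genes, which respond to neuronal activity, Atf3 was marked in both (3887 bp exercised, 4246 bp sedentary) and Egr2 in the sedentary list only (2224 bp). Of 7 CDK inhibitor genes, Cdkn2a and Cdkn2b, which stop cell division, shared a sedentary domain of 65308 bp and lay under exercised peaks of 27531 and 6503 bp. Of a list of 11 genes taken from those the study names, which it chose on samples of this series and which are so no independent evidence, Prox1 and Myoc were marked, both in the sedentary list only. Myoc, which encodes myocilin, lay under a 2342 bp sedentary peak with no exercised peak within 118594 bp. For Rtl1, a retrotransposon-derived imprinted gene, 37 bp of the 3 kb windows were covered in exercised and 3248 bp in sedentary mice. Fdxr had no peak over its start, and 509 bp (exercised) and 1350 bp (sedentary) within the gene, and the others (Bdnf, Col3a1, Epop, Kptn, Asphd1, Efnb2, Sntb2) had no base covered in the gene in either right list.

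**Figure D4:**
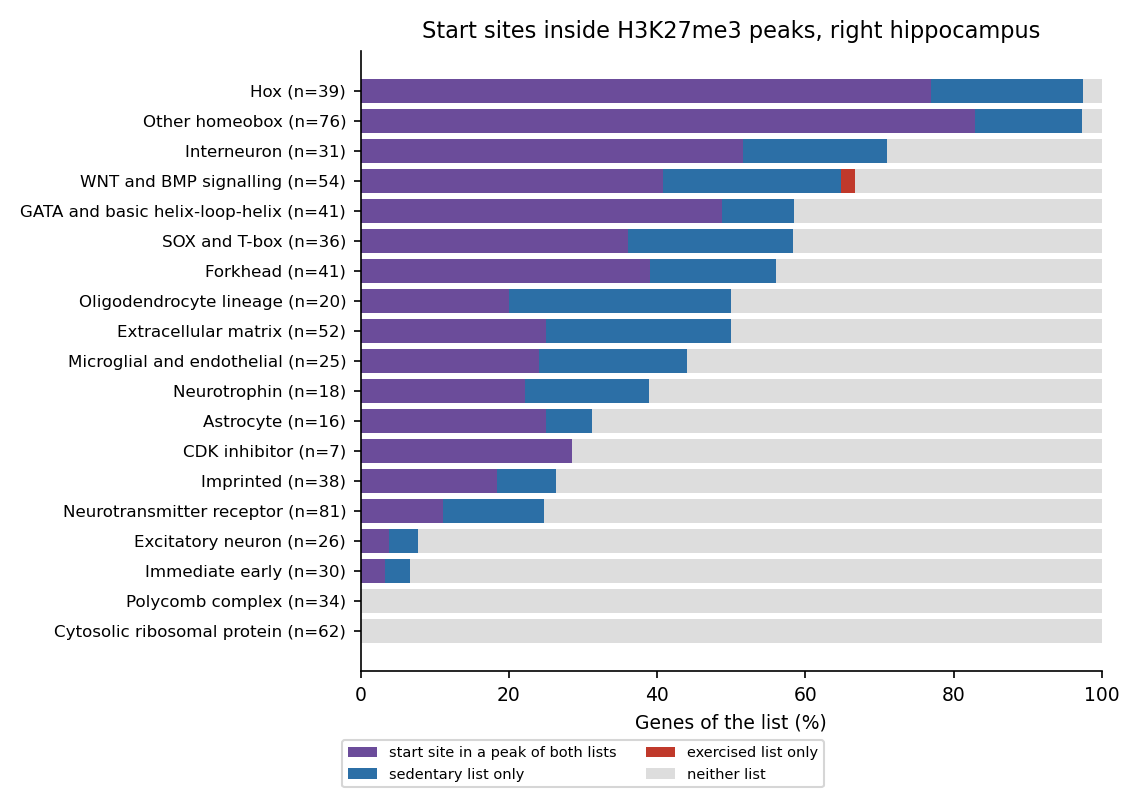
Share of each gene list (%, x axis) whose start site lies in a peak of both right lists (purple), of the sedentary list only (blue), of the exercised list only (red) or of neither (grey); n is the number of genes found in the annotation. Homeobox and Hox lists are marked almost throughout, excitatory neuron, immediate early, Polycomb and ribosomal protein lists hardly or not at all, and Bmp3 is the single gene in red.

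The exercised-only peaks were few and narrow. A narrow peak offers fewer bases to overlap, so this class favours narrow peaks by its definition. Of the 529, 57.8% were narrower than 2000 bp, against 27.8% of all exercised peaks. Distal intergenic were 52.2% (47.9 to 56.4%), against 43.2% of all exercised peaks. A promoter was assigned to 12.3%, against 24.3% of the exercised peaks that overlapped a sedentary peak. Sedentary-only peaks were much alike in this, with 49.3% distal intergenic and 14.4% in promoters. In all, 240 lay within 5 kb of a sedentary peak (45.4%). The widest was a 13729 bp peak at Gm15319 (chr8:20331280-20345008), and of the 15 widest a pair lay near it, at 2610005L07Rik (chr8:20515616-20519583) and Gm21119 (chr8:20520242-20523878). The next were a 5700 bp peak in the promoter class at Trpm8, the cold and menthol channel, a 5201 bp peak at Gm8709, a 4454 bp peak in an intron of Dock1 and a 4173 bp peak at Gm20268. The exercised SIT list also covered bases of all 5, and the exercised left list of the first 3. Sedentary lists covered the first 3 as well, with 10480 bp at Gm15319 in SIT, 2783 bp (left) and 5688 bp (SIT) at Trpm8 and 1092 bp at Gm8709 on the left.

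Of the 36 exercised-only start sites, 21 had a sedentary peak within 3 kb. The widest peak stood over Plek2, a pleckstrin family gene (7229 bp), which was also marked in all of the other 4 lists, between 8069 and 9652 bp. Clca2 (5780 bp), Myct1 (4346 bp), Myl2 (4092 bp), a myosin light chain of heart and slow muscle, and Gbp3 (4075 bp), an interferon-induced GTPase, came next. Cd44, a hyaluronan receptor (2969 bp), was otherwise marked only in the exercised SIT list (1919 bp), and Net1 and Tubal3 shared a peak of 3260 bp. Kcng4 (2019 bp) and Sema3a (1474 bp), a potassium channel subunit and an axon guidance ligand, were among the rest. Within 3 kb of the start, the sedentary right list covered more bases than the exercised right list at several of these genes. They were Plek2 (4739 and 4153 bp), Myl2 (5061 and 3864 bp) and Gbp3 (3840 and 3020 bp). Net1 and Tubal3 (3919 and 3260 bp each) and Kcng4 (2941 and 2019 bp) were others. Clca2, Myct1, Cd44 and Sema3a had fewer sedentary bases. Sedentary lists of other isolations also marked Myct1 and Sema3a (left) and Clca2, Myl2 and Kcng4 (SIT). Exercised lists of other isolations also marked Clca2, Myl2, Gbp3, Net1, Tubal3 and Kcng4. These genes beyond the gene lists were chosen after their values were seen.

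Sorting genes by the symbol assigned to each peak, as the study did, gave other counts for broad domains. By symbol, 3312 genes were in both lists, 194 in the exercised list only and 2706 in the sedentary list only. Each peak carries a single symbol, so a domain that spans many genes names only 1 of them, and a domain cut in pieces can name several. Of 39 Hox genes, 18 had their symbol in the exercised list and 4 in the sedentary list, although 30 and 38 had their start site inside a peak. Of the 191 exercised-only symbols found in the annotation, 57 had a start site marked in both lists, 20 in the sedentary list only and 11 in the exercised list only. Of the 230 peaks that carried such a symbol, 138 overlapped a sedentary peak. Among the genes with the most assigned peaks, most had fewer exercised peaks, such as Adgrl2, an adhesion receptor gene, with 55 exercised and 109 sedentary, and Sox6 with 53 and 67. Wwox, an oxidoreductase gene at a fragile site, had more exercised peaks (69 against 34) over fewer bases (355633 against 630089 bp), and so did Ptprm (57 against 47 peaks, 189424 against 539831 bp).

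Most sedentary-only peaks were present in at least 1 exercised list of another isolation. Of the 14894, 76.6% (75.9 to 77.3%) overlapped a peak of the exercised SIT list, 51.3% of the exercised left, 36.2% of the sedentary left and 28.7% of the sedentary SIT list. A share of 2.19% met a sedentary list and no exercised list of another isolation, and 36.8% met an exercised list and no sedentary list. The order of the 4 lists followed their lengths of 25693, 18262, 14491 and 10279 peaks. Exercised-only peaks were found in 64.1, 35.3, 29.9 and 14.4% of cases in the same lists, and kept sedentary peaks in between 82.5 and 98.1%. Among the widest sedentary-only peaks, those at Slc28a3 (20787 bp), D1Pas1 (19045 bp), Fzd10os (18112 bp) and Gm15326 (17382 bp), were each covered in part in all of the other 4 lists. Slc28a3, a nucleoside transporter gene, had between 12843 and 18828 bp covered there.

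**Figure D5:**
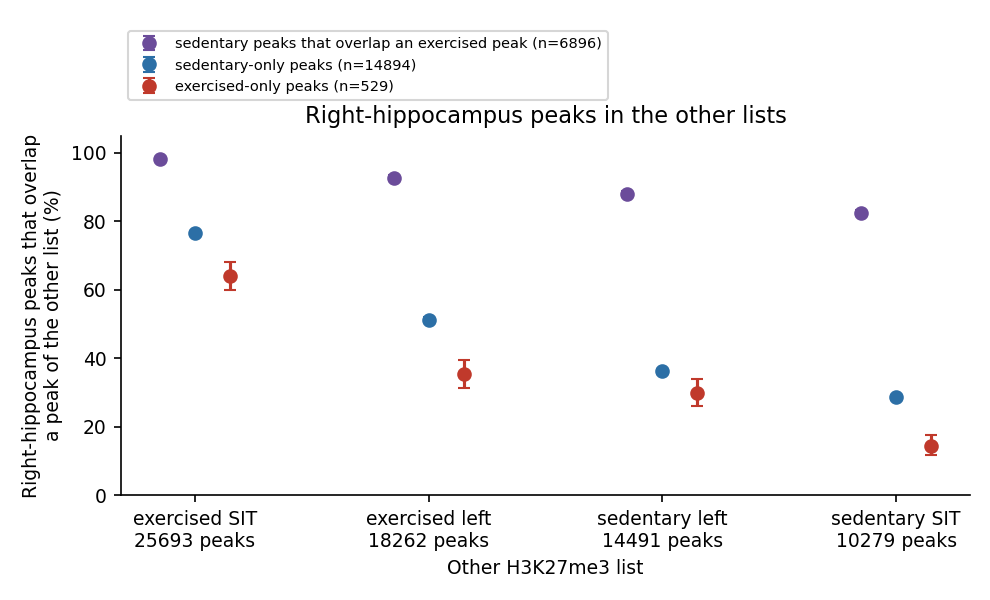
Share of right-hippocampus peaks (%, y axis) that overlap a peak of each other H3K27me3 list (x axis, with the number of peaks in that list), for kept sedentary peaks (purple), sedentary-only peaks (blue) and exercised-only peaks (red); bars are 95% Wilson intervals over peaks. Kept peaks are at 82.5% or more in each list, and sedentary-only peaks lie between 28.7% (sedentary SIT) and 76.6% (exercised SIT).

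Chromosomes differed in how much of the sedentary list was kept. The ratio of exercised to sedentary peaks had a median of 0.450 over the 19 autosomes, with chromosome 10 highest at 0.569 and chromosomes 15 and 16 lowest at 0.274 and 0.317. On chromosome 15, 139 of 667 sedentary peaks were kept (20.8%, 17.9 to 24.1%), where the kept shares of its width classes over the genome would give 27.2%. On chromosome 10, 401 of 979 were kept (41.0%), where they would give 32.5%. The ratio did not follow GC content over the autosomes (Spearman's rho -0.08, Pearson's r -0.17, n = 19 chromosomes of the same 2 lists, given as a description). The X chromosome of these male mice carried 84 sedentary and 6 exercised peaks, and 5 of the 84 were kept (5.95%, 2.57 to 13.2%), where the width classes would give 22.0%. Its 15317 bp peak at Gpr50, a melatonin-related receptor gene, had no exercised overlap, while its 17152 bp peak at Irs4, an insulin receptor substrate gene, overlapped an exercised peak of 2441 bp.

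Few H3K27me3 peaks of the right hippocampus overlapped a listed peak of acetylated H4K8, a mark of active genes. The share to expect for peaks placed without regard to the other mark was not computed. The exercised right H4K8ac list overlapped 16 exercised peaks (0.162%), and the sedentary right H4K8ac list 127 sedentary peaks (0.583%). Of the 1058 start sites with H3K27me3 in both conditions, none lay in an H4K8ac peak of either right list (interval 0 to 0.362%). Of the 1081 sedentary-only start sites, 3 lay in an exercised and 11 in a sedentary H4K8ac peak (0.278 and 1.02%), against 6.52 and 12.3% of the 19763 genes with no H3K27me3 peak over the start. Some exercised H4K8ac libraries of the separate isolations were set aside in the study for a high false discovery rate of their peaks, and which hemisphere they came from is not given, so absence from the exercised H4K8ac list is not evidence of absent acetylation.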

How the data were processed

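CUT&RUN-seq libraries of H3K27me3 from the right hippocampus were grouped by the labels into 3 exercised and 3 sedentary samples. Per the labels and the submitters' processing notes, the authors checked reads with FastQC 0.11.9, aligned them to mm10 with Bowtie2 2.4.1, called peaks with SEACR in its stringent mode with a numeric threshold, which keeps a set top fraction of the signal regions of a profile, and annotated them with ChIPseeker 1.8.6, with a promoter window of 3 kb. The authors deposited 1 list per condition, with the start, end and width of each peak in bp and its distance to the assigned start. The lists hold no counts, signal or p-value. How libraries were combined is not given in the sources used here, so each list is a pooled value with no SD, n or depth.

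Overlap meant at least 1 bp. Start sites were gene 5′ ends of GENCODE M21 (GRCm38). The assigned transcripts numbered 8473, of which 99.2% had an entry there, each at the same position. Sequences were taken from RefSeq (GRCm38.p6). Alternatives were reciprocal overlap of 50%, the broader 50% of either list, cutting the sedentary list to 9899 peaks by width (equal numbers), dropping chromosome Y, peaks under 5 kb apart joined, shares of bases, and genes counted by symbol. Interval functions were tested on simulated data and equalled a base-by-base count in 20 of 20 pairs of lists. Scripts used pandas 2.3.3, numpy 2.4.6, scipy 1.17.1 and matplotlib 3.10.9 under Python 3.11.15.

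Members, gene lists and measures were chosen with earlier results of these data known. Genes were named if the study names them, if assigned to the 5 widest peaks of a list or class or to the 5 most divided sedentary domains, or, within a gene list, as up to 6 members of 1 condition and 4 of both, widest peak first. Other names were chosen after their values were seen. IgG samples and the remaining H4K8ac lists are not analysed here. Some genes that this rule names are not reported here.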

Additional observations from a re-analysis of the deposited data

Results flagged for a closer look

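The direction of the difference between conditions was not the same in the 3 isolations, which share no list. Of the protein-coding start sites marked in 1 condition only, 3.22% were in the exercised list in the right hippocampus (36 exercised only, 1081 sedentary only). In the left hippocampus 63.1% were (382 and 223), and in the simultaneous isolations of both hippocampi 92.9% were (760 and 58). The longer list of each isolation held more of these genes, with 9899 exercised and 21790 sedentary peaks on the right, 18262 and 14491 on the left and 25693 and 10279 in SIT. Each isolation gives 1 list per condition, so the difference between isolations was not tested, and the part of list length in it was not tested.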

How the results depend on the processing

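No paired analysis was possible with these lists, because each pools the samples of its group and carries no replicate. For the same reason the replicates were not left out in turn.

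The share of exercised peaks that overlapped a sedentary peak was 94.7%, and 31.5% with reciprocal overlap of 50%, 95.2% with the widest 50% of each list, 83.3% at equal numbers and 93.5% with peaks under 5 kb apart joined. The share of sedentary peaks that overlapped an exercised peak was 31.6%, and 14.3, 33.3, 56.7 and 37.4% in the same order. The difference in promoter share was 4.21 percentage points and reversed to -3.31 at equal numbers. The ratio of median widths was 0.918, and 0.863 with the widest 50%, 0.494 at equal numbers and 0.816 with peaks joined. By symbol of any peak, genes in both lists numbered 3312, exercised only 194 and sedentary only 2706. By symbol of a promoter peak, 1727 were in both and 174 in the exercised list only. At equal numbers, 96 start sites were exercised only and 691 sedentary only. Without chromosome Y, both overlap shares, the promoter difference and the width ratio kept their values to within 0.1. For the 20 gene lists, 81 of 120 counts stayed within 1.5 times the main count. The lists do not state their depth, and a peak missing from a list is one that was not called at that depth.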
